A study of Mus musculus with 12 samples.

Results

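The colon mucosa of Muc1 knockout marrow chimeras was compared with that of wild-type marrow chimeras after treatment with the carcinogen azoxymethane (AOM) and the irritant dextran sodium sulfate (DSS), on 6 of the 12 arrays of the series. The arrays were taken by their labels alone. KO_AOMDSS 1 to 3 came from C57BL/6 wild-type recipients given Muc1 knockout donor marrow of the same strain, and WT_AOMDSS 1 to 3 from C57BL/6 wild-type recipients given wild-type donor marrow. Both groups received 12.5 mg/kg of AOM, which alkylates DNA in the colon, into the peritoneum. DSS, which injures the colon epithelium, began 5 days later at 2% in the drinking water for 4 days, with 14 days of plain water after it. That cycle was given once more, 2.5% DSS was then given for 5 days, and the mice were killed 1 day later. The other 6 arrays held mucosa of untreated chimeras, 3 with knockout marrow (KO_untreated) and 3 with wild-type marrow (WT_untreated). Every recipient carried an intact Muc1 gene, so the epithelium and other cells that do not descend from marrow were wild type in both groups. Donor chimerism and the ages of the mice were not used here, as the labels state neither. Each array was hybridised with Cy3-labelled RNA from the scraped mucosa of 1 colon.

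Muc1 encodes a membrane-spanning mucin with a heavily glycosylated outer part and a short cytoplasmic tail that takes part in signalling. It is best known from the luminal surface of secretory epithelia, and some blood cells make it too. In a DSS-injured colon, neutrophils, monocytes, macrophages and lymphocytes arrive from the marrow, while the epithelium, fibroblasts and muscle belong to the recipient. Scraped mucosa mixes the RNA of all of them, so fewer cells of a type and less RNA per cell cannot be told apart.

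Levels are given below as log2 of the scanner's processed signal minus the 75th percentile of the same array, and a difference is KO_AOMDSS minus WT_AOMDSS on that log2 scale, where 1 stands for a 2-fold difference. It comes from the fit with slide as a term, which equals the difference of the group means where all 6 treated values are present and departs from it where a spot was flagged. Levels of different genes come from different probes and are not set against each other. A pair of treated arrays stood apart from the rest. WT_AOMDSS 3 was dim, with a 75th percentile of 153 signal units, against 488 to 768 on the other 5 treated arrays, and WT_AOMDSS 2 carried a high level of muscle and fat genes, as described further on. KO_AOMDSS 3 and WT_AOMDSS 3 lay on slide 2, and the other 4 treated arrays lay on slide 3, so each slide held both groups and each difference could also be read within a slide. Slide 3 was scanned on a day of its own and had 583 to 865 flagged spots per array, against 48 on KO_AOMDSS 3 and 185 on WT_AOMDSS 3. Results are therefore given for both slides together and, where it matters, for slide 3 alone, which leaves out the dim array.

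No gene of the 23756 tested differed between knockout and wild-type marrow in the treated mucosa by limma's moderated test with Benjamini-Hochberg adjustment at 0.05, a called share of 0%, and the smallest adjusted p was 0.999923. Before adjustment, 407 genes (1.71%) lay under 0.05 with higher values and 278 (1.17%) with lower values under knockout marrow. Among genes with non-overlapping groups, the kallikrein Klk1b4 and the enzymes Hgfac and Sult1c2 had the largest moderated statistics on the higher side, and Medag, a gene linked to fat cell formation, the sialyltransferase St3gal4 and the repair glycosylase Mbd4 had them on the lower side. All 3 knockout marrow values lay above all 3 wild-type marrow values at 339 genes, 1.53% of the 22226 genes with a value on every treated array, and below them at 243 genes, 1.09%. With 3 arrays against 3, an exact two-sided permutation test of such a gene cannot give a p below 0.1. The median standard error of a difference was 0.38 and the median 95% interval reached 0.83 to either side, so a difference of the size that most genes showed (median absolute value 0.23) was not detectable with this number of arrays.

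The slides gave different pictures of the same comparison. Across the 22226 genes with a value on all 6 arrays, the difference within slide 2 and that within slide 3 had the same sign at 8347 genes, or 37.6%. The correlation of the 2 within-slide differences across genes was negative (Pearson r -0.29, Spearman rho -0.33), where genes are not independent replicates and each slide has its own arrays. The median absolute difference was 0.67 within slide 2, with 1 array of each group, and 0.29 within slide 3, with 2 of each. The median signed difference was -0.29 within slide 2 and 0.08 within slide 3. The slide medians of lists given below are to be read beside these values, and not beside 0 alone. Within slide 3 no gene was called by limma, with 1024 genes under an unadjusted 0.05 and a smallest adjusted p of 0.979. Within slide 2, limma called 416 genes higher and 144 lower with knockout marrow, a count that rests on the dim WT_AOMDSS 3 set against 1 array and on the assumption that lone arrays vary like the replicated ones. On slide 3, KO_AOMDSS 1 differed from WT_AOMDSS 1 by a median of 0.32, less than it differed from KO_AOMDSS 2 (0.38). KO_AOMDSS 1 and WT_AOMDSS 1 bear the same number and had the highest correlation of all treated pairs (r 0.982). KO_AOMDSS 1 correlated at 0.969 with WT_AOMDSS 2 and at 0.978 with KO_AOMDSS 2, so that pair does not stand for the others.

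**Figure D1:**
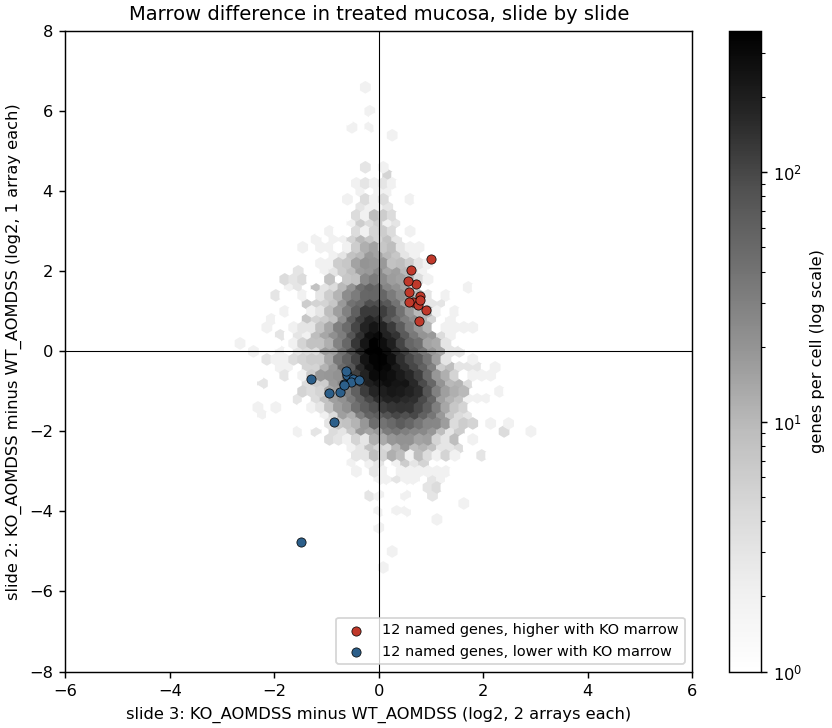
Each cell counts genes by their KO_AOMDSS minus WT_AOMDSS log2 difference within slide 3 (x axis, 2 arrays of each group) and within slide 2 (y axis, 1 array of each group), with shading on a log scale. The cloud tilts from upper left to lower right (r -0.29 over 22226 genes), and the marked genes, 12 higher and 12 lower with knockout marrow, sit in the quadrants where both slides have the same sign, as their choice by non-overlapping values requires.

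The gene deleted in the donor marrow was measured in every group. Muc1 had log2 levels of -2.30, -0.99 and -2.41 in KO_AOMDSS mucosa, against -2.17, -1.47 and -3.53 in WT_AOMDSS mucosa. The groups overlapped, the difference was 0.49 ± 0.44 (SE, n = 3 each; 95% interval -0.47 to 1.45), and Muc1 was well above background on every treated array. A second Muc1 probe differed by 1.19, with WT_AOMDSS 3 alone at -6.10. In untreated mucosa Muc1 was at -2.12, -2.90 and -3.80 in KO_untreated, against -1.50, -1.72 and -2.25 in WT_untreated mice, and these groups overlapped too. The recipients' own cells carry Muc1, and no source places the probes against the stretch that was deleted, so these levels do not check the donors' genotype. The sign of the treated difference turned to -0.43 with normexp background correction, under which the median of all genes was -0.42.

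Among the genes with higher values under knockout marrow, 12 were chosen by the largest moderated statistic among those with non-overlapping groups, and none passed the test. Hgfac, a serine protease that activates hepatocyte growth factor, was at 4.97, 4.75 and 4.54 in KO_AOMDSS mucosa, against 4.20, 4.35 and 3.05 in WT_AOMDSS mucosa. Its difference was 0.88 ± 0.23 (95% interval 0.38 to 1.38), with 0.58 on slide 3. The dim array gave the lowest value, and the knockout marrow values stood closer together than the wild-type ones. Sult1c2, a cytosolic sulfotransferase, was at 3.11, 2.73 and 3.43 in KO_AOMDSS, against 2.34, 2.17 and 2.20 in WT_AOMDSS mucosa (difference 0.85 ± 0.22). Prdx5, a mitochondrial and cytosolic peroxiredoxin that breaks down peroxides, was at 4.27, 4.42 and 3.86 in KO_AOMDSS, against 3.63, 3.53 and 3.11 in WT_AOMDSS mucosa (difference 0.76 ± 0.21). Prdx5 differed by nearly the same amount on slide 2 (0.75) and slide 3 (0.76), and Sult1c2 by more on slide 2 (1.23) than on slide 3 (0.66).

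The remaining members of the 12 had other roles. Slc44a1, a choline transporter, was at 1.09, 1.03 and 1.67 in KO_AOMDSS, against -0.08, 0.70 and 0.52 in WT_AOMDSS mucosa (difference 0.88 ± 0.25). Bace2, an aspartyl protease, was at 1.15, 0.75 and 0.43 in KO_AOMDSS, against 0.42, 0.24 and -1.61 in WT_AOMDSS mucosa, so that the highest wild-type value lay just under the lowest knockout marrow value and the dim array set much of the difference of 1.09 ± 0.33 (0.62 on slide 3). Tmem40, a membrane protein, was at 0.44, 0.95 and 0.82 in KO_AOMDSS, against -0.16, -0.24 and -0.22 in WT_AOMDSS mucosa (difference 0.94 ± 0.29). Its wild-type values lay close together, and both slides gave a similar difference (1.04 and 0.90). Sval1, a secreted seminal vesicle antigen-like protein, differed by 0.80 ± 0.23, and Fcho1, which nucleates clathrin-coated pits, by 0.99 ± 0.27. Adora3, the adenosine A3 receptor, differed by 1.44 ± 0.41 and Ggn, named for its role in germ cells, by 0.96 ± 0.29. Adora3 and Ggn were well above background on 3 KO_AOMDSS and 2 WT_AOMDSS arrays each, and both turned negative with normexp (-0.61 and -0.34). The other 2 of the 12, Klk1b4 and Klk1b3, belong to the kallikrein block.

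On the lower side, 12 genes were chosen in the same way, and none passed the test. St3gal4, a sialyltransferase that caps glycans with sialic acid, was at 3.80, 3.48 and 4.24 in KO_AOMDSS, against 4.41, 4.37 and 5.26 in WT_AOMDSS mucosa. The difference was -0.84 ± 0.22 (95% interval -1.32 to -0.36), with -1.02 on slide 2 and -0.75 on slide 3. The rule of choice puts the highest knockout marrow value of St3gal4 under its lowest wild-type value, and replicate 3 was the highest of its group in both. Mbd4, a glycosylase that removes mismatched thymine and uracil from DNA, was at -3.40, -3.35 and -3.06 in KO_AOMDSS, against -2.18, -2.84 and -1.30 in WT_AOMDSS mucosa (difference -1.16 ± 0.34). Alkbh3, which reverses alkylation damage in DNA and RNA, was at 1.23, 1.28 and 1.56 in KO_AOMDSS, against 1.84, 1.66 and 2.24 in WT_AOMDSS mucosa (difference -0.56 ± 0.19). Both repair genes had lower values under knockout marrow on each slide, which their choice by non-overlapping values requires, with adjusted p = 0.999923 from limma. The fixed list of p53 targets and alkylation repair, which held neither of them, had 9 of its 15 measured members above 0 and 6 below, with a median of 0.13, and its member Trp53inp1, a p53-induced stress protein, was non-overlapping on the higher side (difference 0.61 ± 0.22).

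Chaperone partners made up another pair, each chosen for its lower values. Chordc1, which binds Hsp90, was at 1.60, 1.37 and 1.29 in KO_AOMDSS, against 2.18, 2.00 and 1.87 in WT_AOMDSS mucosa (difference -0.60 ± 0.19). Bag2, a nucleotide exchange factor of Hsp70, was at -2.77, -2.25 and -2.32 in KO_AOMDSS, against -1.39, -1.74 and -1.28 in WT_AOMDSS mucosa (difference -0.98 ± 0.31). For both, slides 2 and 3 gave nearly the same difference, -0.58 and -0.61 for Chordc1 and -1.04 and -0.94 for Bag2. Hsp90b1, the Hsp90 of the endoplasmic reticulum, was at 6.34, 6.20 and 6.39 in KO_AOMDSS, against 6.88, 6.58 and 7.24 in WT_AOMDSS mucosa. Its groups did not overlap either (difference -0.59 ± 0.23, but 0.11 with normexp), while the list of 18 endoplasmic reticulum stress genes that holds it had 12 members above 0 and a median of 0.12. The stress list also holds Xbp1, a transcription factor of the unfolded protein response, whose difference of 1.05 ± 0.50 rested on the dim array: it was -0.07 on slide 3. Hsph1, another heat shock gene, did not follow the pair. Its groups overlapped, and its difference was -0.05 ± 0.21, with -0.54 on slide 2 and 0.19 on slide 3.

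Medag had the largest of the 12 lower differences. It was at -7.32, -6.40 and -6.75 in KO_AOMDSS, against -5.74, -4.99 and -1.996 in WT_AOMDSS mucosa. No KO_AOMDSS array had it well above background and all 3 WT_AOMDSS arrays did. The fitted difference was -2.58 ± 0.66, or 5.97-fold lower under knockout marrow, with an adjusted p of 0.999923 from limma. For each knockout marrow array, the higher of its lowest well-measured signal and the probe's own was also taken. The fold stayed at 5.97, so it is a point estimate and not a minimum. WT_AOMDSS 3 supplied much of that fold, since the difference was -4.75 on slide 2 and -1.49 on slide 3. Slc5a9, a sodium-coupled sugar transporter, differed by -0.71 ± 0.22, and Tnnt2, a troponin T of striated muscle, by -1.09 ± 0.41. Nudt2, which hydrolyses dinucleoside polyphosphates, differed by -0.58 ± 0.20, and Ndufaf5, an assembly factor of respiratory complex I, by -0.61 ± 0.22. Commd3 and Ccdc34 completed the set at -0.49 ± 0.18 and -0.72 ± 0.27.

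**Figure D2:**
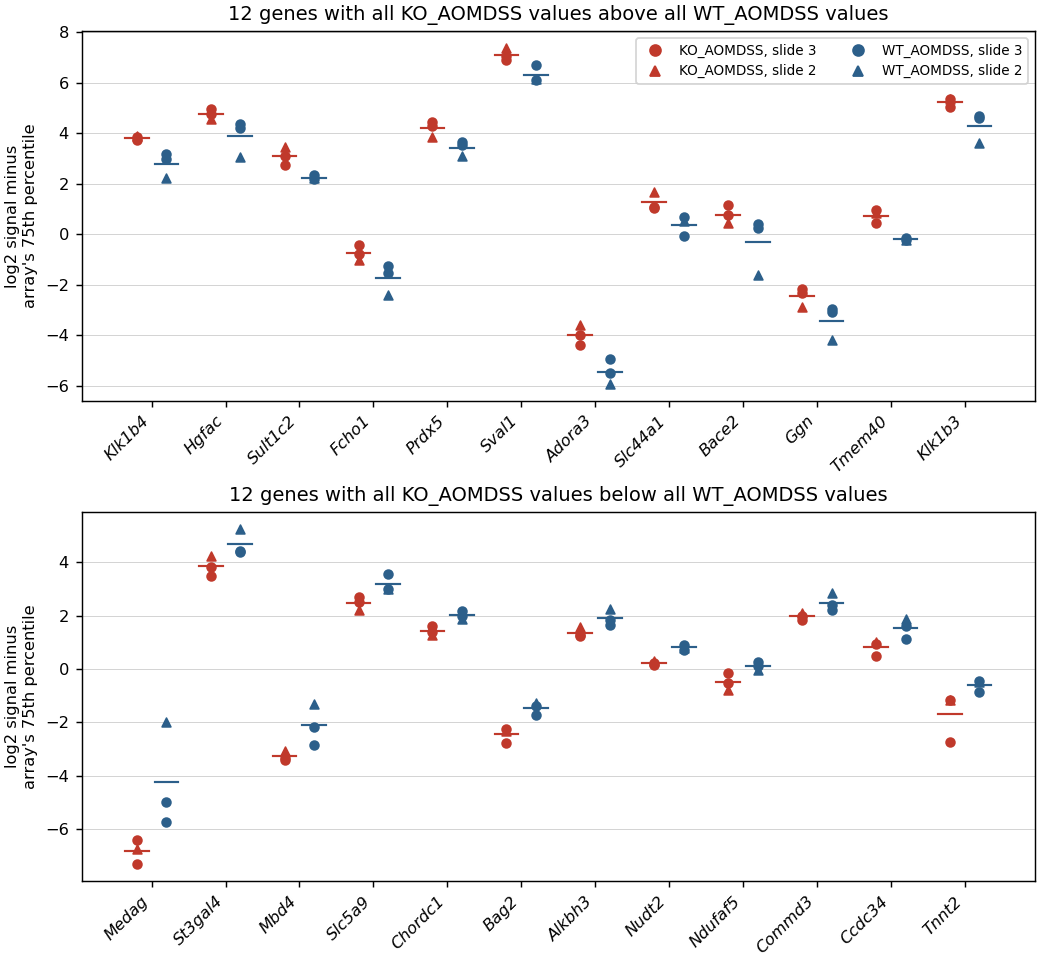
Log2 level minus the array's 75th percentile (y axis) of the 12 genes chosen on the higher side (top) and the 12 on the lower side (bottom), with KO_AOMDSS in red left of WT_AOMDSS in blue, circles for slide 3, triangles for slide 2 and bars for the group means. The groups do not overlap for any gene shown, by the rule that chose them, and for Klk1b4, Hgfac, Bace2 and Medag the WT_AOMDSS triangle, the dim array, lies farthest from the KO_AOMDSS values.

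The kallikrein 1 genes encode serine proteases of glands and mucosae that lie side by side on mouse chromosome 7. Their 14 promoters in the RefSeq table (GRCm38.p6) span positions 43950416 to 44225409 on the plus strand, and 8 of the genes were measured here. The promoters of 4 of the measured genes with non-overlapping groups are shown because they let the likeness of the block be seen. Each runs from 250 bases before to 50 bases after the gene's start, 5′ to 3′, and capitals mark TTTAAAGTC, a stretch picked after these promoters had been compared.
Klk1b8 at chr7:43950416-43950715: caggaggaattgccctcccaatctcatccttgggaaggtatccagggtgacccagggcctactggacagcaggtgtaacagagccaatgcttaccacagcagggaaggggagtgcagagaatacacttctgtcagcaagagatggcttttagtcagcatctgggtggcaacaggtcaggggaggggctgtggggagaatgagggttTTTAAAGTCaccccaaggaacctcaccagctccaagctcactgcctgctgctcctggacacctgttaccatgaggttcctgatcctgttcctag
Klk1b24 at chr7:44187986-44188285: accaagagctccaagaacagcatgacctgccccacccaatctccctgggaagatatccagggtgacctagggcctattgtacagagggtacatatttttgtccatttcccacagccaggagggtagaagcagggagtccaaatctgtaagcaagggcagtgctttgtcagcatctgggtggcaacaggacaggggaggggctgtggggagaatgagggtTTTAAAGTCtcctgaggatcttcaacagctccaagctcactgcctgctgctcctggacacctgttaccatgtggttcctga
Klk1b3 at chr7:44197941-44198240: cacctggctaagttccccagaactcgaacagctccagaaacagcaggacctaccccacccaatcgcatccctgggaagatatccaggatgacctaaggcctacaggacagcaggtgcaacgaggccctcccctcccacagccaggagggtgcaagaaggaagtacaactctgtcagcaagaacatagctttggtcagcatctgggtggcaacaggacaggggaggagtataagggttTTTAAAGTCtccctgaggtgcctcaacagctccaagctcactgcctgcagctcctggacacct
Klk1b4 at chr7:44207183-44207482: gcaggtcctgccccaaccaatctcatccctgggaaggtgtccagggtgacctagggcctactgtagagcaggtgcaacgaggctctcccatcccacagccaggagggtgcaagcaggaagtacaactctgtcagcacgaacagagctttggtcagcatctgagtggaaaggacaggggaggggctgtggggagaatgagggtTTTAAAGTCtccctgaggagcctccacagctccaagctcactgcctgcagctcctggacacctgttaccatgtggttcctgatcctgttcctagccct

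In a global alignment of these 4 promoters, pairs were identical at 61.4% (Klk1b3 and Klk1b8) to 80.1% (Klk1b4 and Klk1b8) of the aligned positions. TTTAAAGTC, searched on both strands, occurred in 10 of the 14 kallikrein 1 promoters and in 119 of all 32851 promoters in the table, or 0.362%. It was present in the promoter of Klk1b9, whose groups overlapped, and not in that of Klk1, whose groups did not. A match describes these letters only. Because the genes resemble each other, a probe for one may also bind transcripts of another, and the 8 genes are not 8 independent observations. The part of such shared binding in the result was not tested.

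Of the 8 measured kallikreins, 6 had non-overlapping groups with higher values under knockout marrow and none had the reverse, beside the 1.53% and 1.09% of all genes given above. The family was taken up after values were seen, with Klk1b4 and Klk1b3 already among the 12 genes chosen for non-overlap. The count includes them, so it is a description and no support for a family-wide difference. Klk1b4, the alpha subunit of the mouse nerve growth factor complex and the first of the 12 by its statistic, was at 3.85, 3.71 and 3.90 in KO_AOMDSS, against 2.96, 3.17 and 2.22 in WT_AOMDSS mucosa. Its difference was 1.04 ± 0.26 (95% interval 0.48 to 1.60), with 1.69 on slide 2 and 0.72 on slide 3. Klk1b3, the gamma subunit of that complex, was at 5.34, 5.05 and 5.35 in KO_AOMDSS, against 4.61, 4.66 and 3.60 in WT_AOMDSS mucosa (difference 0.95 ± 0.30). Klk1, the tissue kallikrein that releases kinins, was at 4.89, 4.97 and 5.11 in KO_AOMDSS, against 4.34, 4.67 and 2.98 in WT_AOMDSS mucosa (difference 0.99 ± 0.36). In each of these genes the knockout marrow values stood close together and the dim WT_AOMDSS 3 was the lowest array by far. Klk1b8 differed by 0.98 ± 0.31, Klk1b21 by 1.09 ± 0.42 and Klk1b24 by 1.25 ± 0.46. Klk1b24 was well above background on 2 of the 3 WT_AOMDSS arrays. The groups overlapped for Klk1b16 (0.91 ± 0.39) and Klk1b9 (0.18 ± 0.78). On slide 3 alone the 8 differences were all positive, from 0.23 for Klk1b16 to 0.72 for Klk1b4, and thus smaller than with the dim array, except for Klk1b9 at 0.67. For the 6 non-overlapping genes that sign follows from the non-overlap itself. With normexp, Klk1b21, Klk1b24, Klk1b16 and Klk1b9 turned negative (-0.18, -0.59, -0.40 and -0.78), while the signs of Klk1, Klk1b3, Klk1b4 and Klk1b8 held.

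The untreated chimeras were compared at the same genes. Klk1b4 was at 5.03, 5.00 and 4.79 in KO_untreated, against 3.79, 4.04 and 4.55 in WT_untreated mucosa, where the groups did not overlap either. All 3 WT_untreated arrays lay on slide 1 and only KO_untreated 1 lay there with them, so with slide in the fit the untreated difference is KO_untreated 1 alone minus the WT_untreated mean. That difference was 0.91 for Klk1b4 (adjusted p = 0.999985 from limma), and the treated difference minus it was 0.13 ± 0.44. For Klk1 the treated minus the untreated difference was -0.08 ± 0.63.

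**Figure D3:**
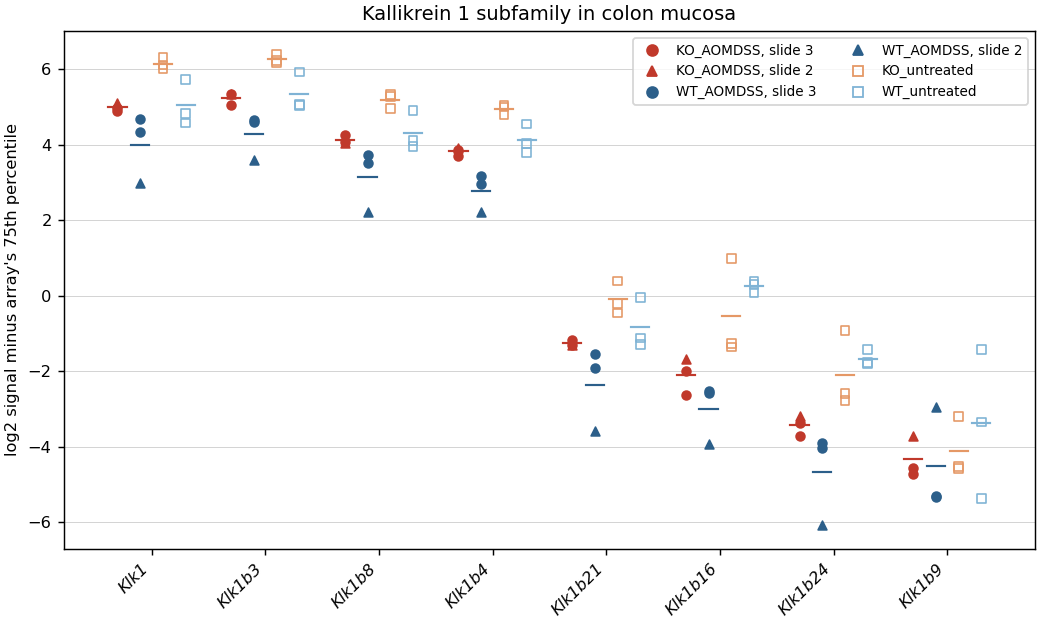
Log2 level minus the array's 75th percentile (y axis) of the 8 measured kallikrein 1 genes, with KO_AOMDSS (red), WT_AOMDSS (blue), KO_untreated (orange squares) and WT_untreated (light blue squares) from left to right within each gene, and bars for group means. Circles are slide 3 and triangles slide 2; for 6 of the 8 genes every KO_AOMDSS value lies above every WT_AOMDSS value, and the WT_AOMDSS triangle is the lowest treated value of those 6.

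Goblet cells, which secrete the mucus layer of the colon, were represented by 11 measured genes, of which 10 lay above 0, beside 48.2% of all genes. The median difference was 0.51, with 0.90 on slide 2 and 0.34 on slide 3. Without WT_AOMDSS replicates 2 and 3 it was 0.20. Spdef, a transcription factor of goblet cell maturation, was at 2.63, 2.45 and 2.41 in KO_AOMDSS, against 2.40, 2.06 and 1.49 in WT_AOMDSS mucosa (difference 0.51 ± 0.21). Agr2, a disulfide isomerase needed for mucin folding, was at 7.66, 7.70 and 7.73 in KO_AOMDSS, against 7.47, 7.09 and 6.83 in WT_AOMDSS mucosa (difference 0.56 ± 0.25). In both genes the groups did not overlap, by a narrow margin in Spdef, and none of the 11 genes passed the test. The list also holds Klk1, its highest member at 0.99 and one of its 3 genes with non-overlapping groups. Klk1 is counted in the kallikrein block too, so the goblet and kallikrein results are not separate observations. Retnlb, a resistin-like antibacterial protein of goblet cells, was the member below 0: it was at 5.25, 3.48 and 6.05 in KO_AOMDSS, against 5.37, 4.67 and 6.35 in WT_AOMDSS mucosa (difference -0.54 ± 0.74).

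Other epithelial lists were measured in the same way. Of 20 absorptive colonocyte markers, 13 lay above 0 with a median of 0.12. Car1, a carbonic anhydrase of surface colonocytes, was at 6.86, 5.43 and 6.69 in KO_AOMDSS, against 5.76, 4.87 and 5.86 in WT_AOMDSS mucosa (difference 0.83 ± 0.34), while Slc51b, a subunit of the basolateral bile acid exporter, was at 1.95, 2.60 and 1.81, against 3.00, 3.09 and 2.47 (difference -0.73 ± 0.26). The groups overlapped for both. Tuft cell markers, of chemosensory epithelial cells, had 9 of 10 members above 0 (median 0.37, but -0.51 with normexp). Enteroendocrine markers had 10 of 12 above 0 with a median of 0.40 (Chgb, a granin of hormone granules, at 0.90 ± 0.46). The tight junction list had 8 of 15 above 0 (median 0.18). In that list Cldn3 and Cldn8, 2 claudins that seal the colon epithelium, differed by 0.78 ± 0.31 and 0.81 ± 0.31, and by only 0.27 and 0.35 on slide 3. Stem cell and Wnt target genes had 12 of 16 members below 0, with a median of -0.26, which was -0.19 on slide 2 and -0.33 on slide 3. The slide 2 value lay above the -0.29 of all genes there. Lgr5, a receptor of crypt stem cells, was at -3.93, -4.41 and -1.28 in KO_AOMDSS, against -2.37, -2.88 and -1.11 in WT_AOMDSS mucosa (difference -1.08 ± 0.44), and Axin2, a feedback inhibitor of Wnt signalling, differed by -0.63 ± 0.25. Both genes were higher on the slide 2 arrays of either group than on the slide 3 arrays, and their groups overlapped.

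Neutrophils are among the first marrow-derived cells to enter a DSS-injured colon. Of the 17 neutrophil markers measured, 12 lay below 0 and 5 above, and none had non-overlapping groups. Their median was -0.30, with -0.21 on slide 2 and -0.43 on slide 3. The slide 2 value lay above the -0.29 of all genes there, so only slide 3 placed the markers below the typical gene. S100a8, a subunit of the calcium-binding protein calprotectin, was at 0.67, 3.09 and 2.06 in KO_AOMDSS, against 3.54, 4.68 and 2.79 in WT_AOMDSS mucosa. Its partner S100a9 was at 3.12, 5.12 and 5.47 in KO_AOMDSS, against 5.14, 5.10 and 6.80 in WT_AOMDSS mucosa. For both subunits KO_AOMDSS 1 was the lowest treated array and the groups overlapped, with differences of -1.73 ± 0.79 and -1.11 ± 0.50. Il1r2, the decoy receptor for interleukin 1, was at -3.52, -2.74 and -1.38 in KO_AOMDSS, against -1.90, -2.35 and -0.22 in WT_AOMDSS mucosa (difference -1.06 ± 0.42). Clec4e, a C-type lectin that senses microbes and dying cells, differed by -0.89 ± 0.46. Leaving out KO_AOMDSS replicate 1 brought the list's median to -0.08.

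Mediators of suppressive myeloid cells, the marrow-derived cells that restrain T cells, had 8 of 21 members above 0 and 13 below, with a median of -0.16 (0.03 on slide 2, -0.25 on slide 3). Arg1, which depletes arginine, was at -0.77, -0.43 and -0.90 in KO_AOMDSS, against 0.18, -1.09 and -2.50 in WT_AOMDSS mucosa. Nos2, the inducible nitric oxide synthase, was at -3.07, -1.34 and -3.02 in KO_AOMDSS, against -1.29, -1.31 and -3.28 in WT_AOMDSS mucosa. The groups overlapped widely for both enzymes, at 0.44 ± 0.50 for Arg1 and -0.52 ± 0.51 for Nos2, and their signs changed between the slides. Cd33, a sialic acid-binding receptor of myeloid cells, was at -4.52, -4.30 and -3.46 in KO_AOMDSS, against -4.52, -5.06 and -6.06 in WT_AOMDSS mucosa (difference 1.12 ± 0.48, 0.37 on slide 3, and -0.71 with normexp). It was well above background on 2 of the 3 WT_AOMDSS arrays.

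Monocyte and macrophage markers had 15 of 17 members above 0, with a median of 0.22, 0.68 on slide 2 and 0.19 on slide 3. On slide 3 alone 10 of the 17 lay above 0, and 8 of the 17 had the same sign on both slides. Chil3, a chitinase-like protein of monocytes and macrophages, was at 0.15, -0.89 and 2.70 in KO_AOMDSS, against -1.45, -0.66 and -0.77 in WT_AOMDSS mucosa. One high array, KO_AOMDSS 3, carried much of its difference of 1.61 ± 0.55, which was 0.68 on slide 3. Mpeg1, a pore-forming protein of phagocytes, differed by 0.47 ± 0.27. Of 16 T and NK cell markers 10 lay below 0, with a median of -0.13. The T cell surface proteins Thy1 and Cd5 differed by -0.60 ± 0.44 and -0.43 ± 0.32. The B and plasma cell list was even, with 8 of 15 above 0 and a median of 0.04. Mast cell markers had 6 of 9 below 0 (median -0.24), with Hdc, the histamine-forming enzyme, at -1.07 ± 0.50.

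The signals between these cells followed no single direction. Of 27 chemokines, 12 lay above 0 and 15 below, with a median of -0.11. Cxcl2, which attracts neutrophils, was at -2.44, -2.37 and -0.17 in KO_AOMDSS, against -0.88, -1.89 and 0.09 in WT_AOMDSS mucosa (difference -0.77 ± 0.42). Ccl25, the gut-homing chemokine of lymphocytes, differed by -0.53 ± 0.26, and Cxcl16, a membrane-anchored chemokine, by 0.61 ± 0.26, a value fitted without the flagged spot of KO_AOMDSS 2. None of these groups separated. Inflammatory cytokines had 7 of 18 above 0 and a median of -0.16. Ifng, the type II interferon, was at -3.49, -1.05 and -3.45 in KO_AOMDSS, against -0.15, -2.56 and -1.44 in WT_AOMDSS mucosa (difference -1.28 ± 0.83). Il11, a cytokine of stromal cells, was at -0.35, -1.60 and 1.06 in KO_AOMDSS, against -2.21, -1.50 and 0.01 in WT_AOMDSS mucosa (difference 0.94 ± 0.39). Il1b, the inflammasome cytokine, differed by -0.59 ± 0.31, and no cytokine group was non-overlapping.

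Genes that remodel the tissue lay mostly above 0. Of 17 measured matrix proteases and their inhibitors 16 did, with a median of 0.54, of which slide 2 showed 1.08 and slide 3 showed 0.16. On slide 3 alone 10 of 16 lay above 0. Mmp13, an interstitial collagenase, was at 1.24, -0.03 and 2.56 in KO_AOMDSS, against -0.29, 0.08 and -1.16 in WT_AOMDSS mucosa (difference 1.71 ± 0.64). Plau, the urokinase plasminogen activator, was at -4.26, -5.04 and -4.60 in KO_AOMDSS, against -6.004, -5.32 and -6.35 in WT_AOMDSS mucosa. Plau was well above background on 3 KO_AOMDSS, 2 WT_AOMDSS and 0 untreated arrays, so it entered the fit only through the group where it is high, which favours values apart in this direction. The difference of 1.26 ± 0.51 (1.01 on slide 3, but -0.81 with normexp) is given as a description. Timp1, the inhibitor of matrix metalloproteinases, was the member below 0, at -0.42, -0.37 and 0.18 in KO_AOMDSS, against -0.0043, 0.38 and 1.45 in WT_AOMDSS mucosa (difference -0.81 ± 0.29). Fibroblast and collagen genes had 14 of 18 above 0 and a median of 0.54, which was 1.39 on slide 2 and -0.06 on slide 3. Pdgfra and Pdgfrb, the platelet-derived growth factor receptors of stromal cells, differed by 1.68 ± 0.60 and 0.65 ± 0.28, and Pdgfra turned to -0.13 with normexp. The positive fibroblast median was thus present on slide 2, which holds the dim array, and not on slide 3. The slide 3 median covers 16 of the 18 genes, those with no flagged spot there.

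Muscle and fat genes set WT_AOMDSS 2 apart. The 10 smooth muscle genes had median levels of -2.41, -2.08 and -2.35 on KO_AOMDSS 1 to 3, against -2.47, 3.00 and -2.40 on WT_AOMDSS 1 to 3. Myh11, the smooth muscle myosin heavy chain, was at -4.48, -4.48 and -3.42 in KO_AOMDSS, against -4.40, 3.08 and -3.67 in WT_AOMDSS mucosa. The list's median difference of -1.15 became 0.35 without WT_AOMDSS replicate 2. Acta2, an actin that myofibroblasts share with muscle, was read by the brightest of its 3 kept probes. That probe was at 3.89, 4.47 and 3.26 in KO_AOMDSS, against 4.09, 4.17 and 1.67 in WT_AOMDSS mucosa (difference 0.56 ± 0.33). It did not mark WT_AOMDSS 2 out. The mean of the 3 probes gave a difference of -1.16, so this reading covers 1 probe and not the gene. Adipocyte markers had a median level of 0.88 on WT_AOMDSS 2, against -3.05 to -1.89 on the other 5 treated arrays. Plin4, a lipid droplet protein, was at 0.95 on WT_AOMDSS 2, against -3.05 to -1.88 on the others. Krt5, a keratin of squamous epithelium, was at -2.86, -2.54 and -2.87 in KO_AOMDSS, against -2.97, 1.93 and -1.31 in WT_AOMDSS mucosa. None of these lists had a member called, and their part in the other results was not tested beyond the values without that array.

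**Figure D4:**
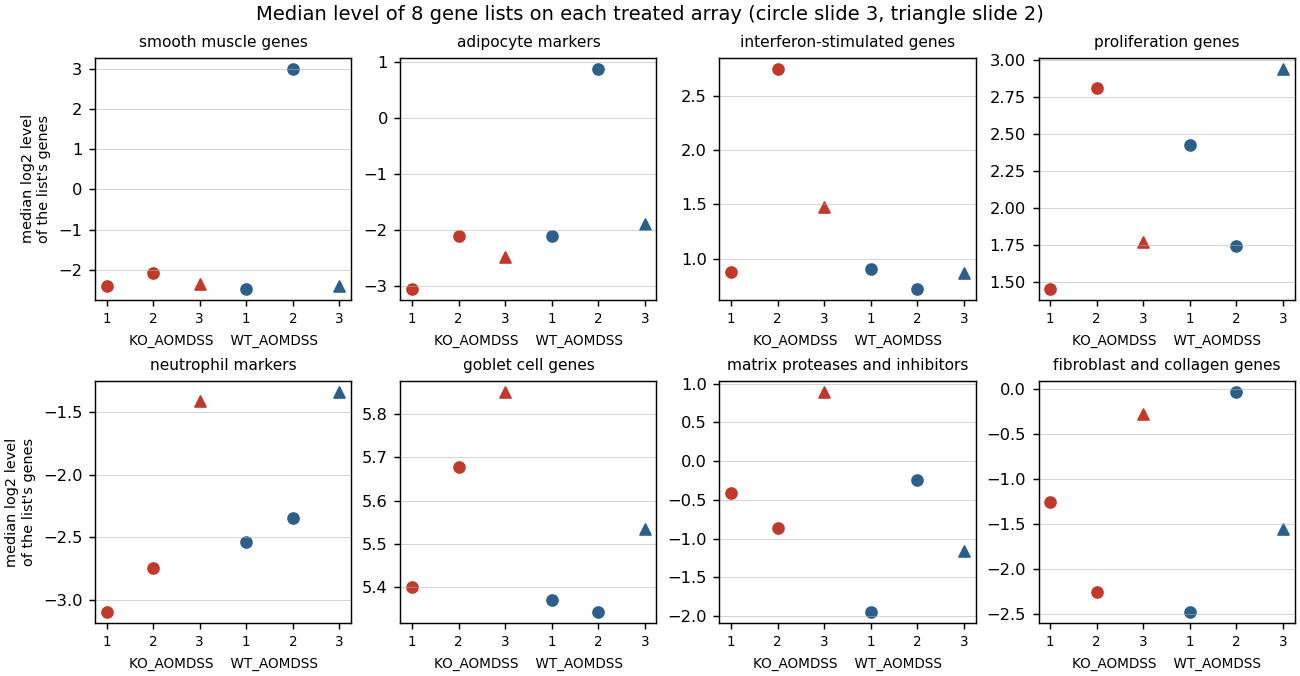
Median log2 level of the measured genes of 8 lists (one panel each, y axes differ) on KO_AOMDSS 1 to 3 (red) and WT_AOMDSS 1 to 3 (blue), circles on slide 3 and triangles on slide 2. WT_AOMDSS 2 stands alone in the smooth muscle panel at 3.00 and in the adipocyte panel at 0.88, and KO_AOMDSS 2 is highest for interferon-stimulated genes at 2.75.

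Proliferation and interferon genes had most members on one side of 0. Of 24 proliferation genes 23 lay below 0, with a median of -0.55. Beside all-gene medians of -0.29 on slide 2 and 0.08 on slide 3, the proliferation genes were at -1.27 and -0.10. Their median levels were 1.45, 2.81 and 1.77 on KO_AOMDSS 1 to 3, against 2.43, 1.74 and 2.94 on WT_AOMDSS 1 to 3, so the groups interleaved. The median difference kept its sign in 22 of 22 alternatives, each treated array left out among them, and ranged from -1.27 to -0.11. The -0.10 on slide 3 covers 20 of the 24 genes, those with no flagged spot there, while the alternatives also use the flagged ones. Ccne1, the cyclin of S-phase entry, differed by -0.90 ± 0.34 with 1 flagged spot left out, and Aurka, a mitotic kinase, had the dim WT_AOMDSS 3 as its one wild-type marrow value, so that its difference of -1.89 ± 0.68 set KO_AOMDSS 3 against that array alone. Interferon-stimulated genes, which carry antiviral defence, had 23 of 27 members above 0 and a median of 0.41. On slide 2 that median was -0.22, near the -0.29 of all genes there, and on slide 3 it was 0.62. Of the 24 members with every treated value, 7 had the same sign on both slides. KO_AOMDSS 2 had the highest level of the 6 arrays at 2.75. The other KO_AOMDSS arrays were at 0.87 and 1.48, and the WT_AOMDSS arrays at 0.72 to 0.90. Without KO_AOMDSS replicate 2 the median was -0.19. Oasl1, a 2′-5′ oligoadenylate synthetase-like protein, was at 1.42, 2.97 and 1.51 in KO_AOMDSS, against 1.51, 1.79 and 0.18 in WT_AOMDSS mucosa, and Ifi27l2a, an interferon-induced membrane protein, differed by 0.71 ± 0.34.

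Metabolic and stress lists are given last. NRF2 targets, the antioxidant genes, had 11 of 16 below 0 with a median of -0.31, which was 0.01 with normexp. Prdx1, a peroxiredoxin of that list, was at 3.89, 4.39 and 4.13 in KO_AOMDSS, against 4.70, 4.68 and 4.57 in WT_AOMDSS mucosa, non-overlapping at -0.51 ± 0.21, and so of the opposite sign to Prdx5. Nqo1, a quinone reductase, differed by -0.78 ± 0.26 with the flagged spot of WT_AOMDSS 2 left out. Circadian clock genes had 11 of 18 above 0 with a median of 0.16. Per1, a repressor of the clock, was non-overlapping at 0.79 ± 0.32, while Nr1d1, another repressor, differed by -0.98 ± 0.48. Xenobiotic enzymes had 15 of 25 above 0 with a median of 0.25 (-0.05 on slide 3). Among them Cyp2c55, a colon cytochrome P450, had the largest moderated statistic of all genes with a symbol: it was at 5.03 on KO_AOMDSS 3, the one knockout marrow value not flagged, against 2.31, 2.30 and 3.20 in WT_AOMDSS mucosa. Its fitted difference of 1.83 ± 0.34 (adjusted p = 0.999923 from limma) is that of KO_AOMDSS 3 and the dim WT_AOMDSS 3 on slide 2, 1 array against 1. Flags had removed a treated value from 10 of the 20 genes with the largest statistics, and from 1530 of 23756 genes in all. Paneth-type alpha-defensins varied by single animals. Defa22 was at -3.45, -3.04 and -1.29 in KO_AOMDSS, against -8.08, -2.84 and -3.45 in WT_AOMDSS mucosa, and Defa5 was likewise lowest on WT_AOMDSS 1 at -4.06. Defa22 was well above background on all 3 KO_AOMDSS arrays and on 2 arrays of each other group, so it was kept only through KO_AOMDSS.

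**Figure D5:**
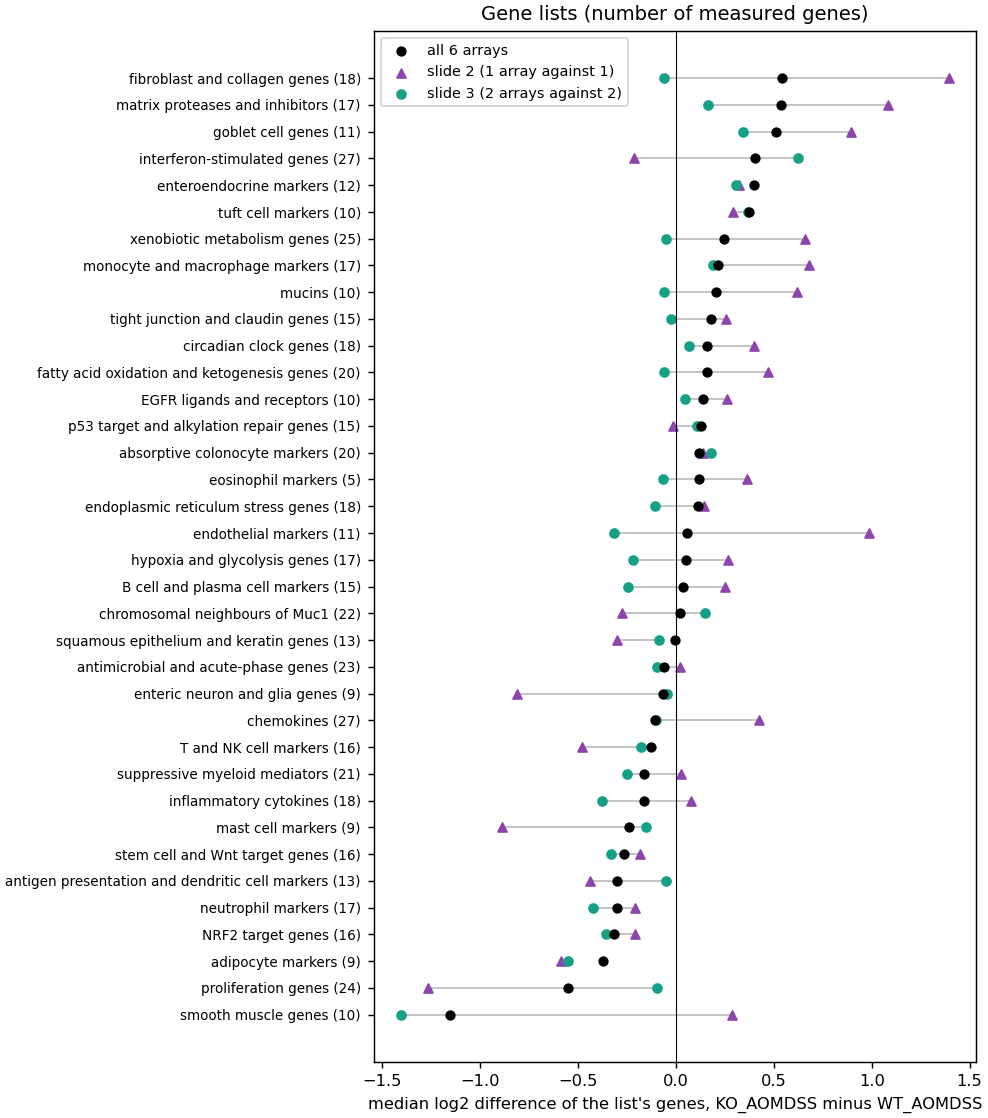
Median log2 difference (x axis, KO_AOMDSS minus WT_AOMDSS) of the measured genes of each list over all 6 arrays (black circles), within slide 2 (purple triangles, 1 array against 1) and within slide 3 (green circles, 2 against 2). Goblet cell genes, matrix proteases and proliferation genes keep their sign on both slides, and the fibroblast, interferon and smooth muscle lists change theirs. Signs are read against 0, while the median of all genes was -0.29 within slide 2 and 0.08 within slide 3.

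Whether the marrow difference of the treated mucosa departed from that of the untreated mucosa was tested as an interaction over all 12 arrays. With slide in the fit, its untreated side is KO_untreated 1 against the 3 WT_untreated arrays of slide 1, and KO_untreated 2 and 3 do not move the estimate. No gene of 23755 was called (0%; smallest adjusted p 0.999897 by limma), and 290 lay under an unadjusted 0.05, or 1.22%. The largest positive interactions included Retnlb, at 5.54 ± 1.28, and Pnliprp2, a pancreatic-type lipase, at 4.42 ± 1.34. Retnlb was close between the treated groups, and its untreated levels were 1.96, 4.54 and 7.31 in KO_untreated, against 8.64, 8.90 and 6.57 in WT_untreated mucosa. The untreated groups overlapped, and KO_untreated 1, which alone sets the untreated side, was the lowest. Among the negative ones, Hsph1 had an interaction of -1.56 ± 0.36, with a treated difference of only -0.05. It was at 3.41, 3.11 and 3.34 in KO_untreated, against 1.94, 1.92 and 1.84 in WT_untreated mucosa. Alyref, an mRNA export factor, had an interaction of -1.60 ± 0.37 with 1 treated value flagged.

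The authors' deposited table gives log2 values of the 4 groups for 2506 probes. In the authors' deposited table every probe differs by at least 1 between KO_AOMDSS and KO_untreated, and 1734 do so between WT_AOMDSS and WT_untreated, so its probes are not a sample of all probes. The KO_AOMDSS minus WT_AOMDSS differences computed from the authors' deposited table correlated with those from the arrays at r = 0.999925 across probes, which are not independent. By the values in the authors' deposited table, 71 probes were at least 1 higher and 76 at least 1 lower under knockout marrow, 5.87% of its probes, beside 2.94% of the 23756 genes with an absolute difference of at least 1.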

How the data were processed

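RNA from 12 mucosa samples was hybridised to single-colour Agilent arrays of design 014868, and per the file headers the spots were read by Feature Extraction 10.7.3.1. The deposited files hold processed signal intensity per spot; the authors' deposited table of log2 values per group was used for description only. From the intensity, log2 minus each array's 75th percentile over gene spots was taken, flagged spots were set missing, and a probe was kept if 1 or more groups had it well above background in all 3 mice (30230 of 41174). The brightest probe stood for a gene, named through RefSeq accessions (GRCm38.p6). limma 3.58.1 (R 4.3.3), tested on simulated data, was fitted to 12 arrays with group and slide; adjusted p-values are Benjamini-Hochberg over all genes, with 0.05 as threshold. Members, lists and genes were chosen with earlier results of these data known: Muc1, 12 genes per direction with non-overlapping groups, leading list members and interactions, and free naming in the neutrophil, suppressive, T cell, chemokine and cytokine lists. The other kallikreins, Agr2, Plau and the defensins were named after their values were seen, and not every gene that the rule allows is printed. Normexp used the median signal, since no mean signal column was at hand. Same-numbered treated arrays deviated together (correlations 0.42, 0.31 and 0.51), seen in the data and not stated in the labels. The other marrow pairs within slide 3 were at 0.15 and 0.12, and the pairs across slides at -0.41 to -0.29. The arrays numbered 3 were the only treated ones on slide 2, so their 0.51 cannot be told apart from a shared slide. The number of arrays limits the precision.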

Additional observations from a re-analysis of the deposited data

Results flagged for a closer look

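Among the genes already named above, Chordc1 and Prdx1 had marrow differences of opposite sign in treated and untreated mucosa, with non-overlapping groups in both. The share of all tested genes with this pattern was not counted. Chordc1 was at 1.60, 1.37 and 1.29 in KO_AOMDSS, against 2.18, 2.00 and 1.87 in WT_AOMDSS mucosa, and at 1.85, 1.92 and 2.00 in KO_untreated, against 0.99, 1.03 and 1.24 in WT_untreated mucosa. Its interaction was -1.36 ± 0.33 (adjusted p = 0.999897 from limma). Prdx1 was at 4.65, 4.49 and 4.65 in KO_untreated, against 3.87, 3.86 and 4.38 in WT_untreated mucosa, and its interaction was -1.12 ± 0.37 (adjusted p = 0.999897 from limma). Neither interaction passed the test. The untreated side of both rests on KO_untreated 1 against the 3 WT_untreated arrays of its slide, while KO_untreated 2 and 3 lay on slide 2, where slide and marrow cannot be told apart for untreated mice.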

How the results depend on the processing

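The absence of calls between KO_AOMDSS and WT_AOMDSS held in 21 of 22 alternatives. Among them were no slide block, quantile scaling, array weights and each treated array left out in turn (0 to 0 genes). Untreated arrays were not left out for this result. Another, chosen after seeing the data, was the fit without both WT_AOMDSS replicates 2 and 3. Within slide 2, where each group has 1 array and the lone arrays are assumed to vary like the others, 560 genes were called. The replicate block, with the numbers as pairs, gave 0 calls (smallest adjusted p 0.993) and changed no call. The interaction had 0 calls in 22 of 23 alternatives, the replicate block included; normexp gave 2, Retnlb (6.09, adjusted p = 0.00752) and an unnamed transcript. It could not be computed without KO_untreated replicate 1, since slide 1 then held WT_untreated arrays alone.

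Signs turned as follows, and the cause was not tested. Normexp, which moved the median of all genes to -0.42, gave Pnliprp2 -0.00038, Pdgfra -0.13, Klk1b21 -0.18, Ggn -0.34, Arg1 -0.39, Klk1b16 -0.40, Muc1 -0.43, Klk1b24 -0.59, Adora3 -0.61, Cd33 -0.71, Klk1b9 -0.78, Plau -0.81, Hsp90b1 0.11 and Retnlb 0.16. Array weights gave Arg1 -0.34, and the mean of a gene's probes gave Acta2 -1.16. Within slide 2 Klk1b9 was -0.79, Myh11 0.25 and Nos2 0.27, and within slide 3 Xbp1 was -0.067 and Arg1 -0.14. With single treated arrays left out, Nos2 ranged from -0.91 to 0.088, Arg1 from -0.14 to 0.97, Xbp1 from -0.067 (without replicate 3 of either group) to 1.42, and Myh11 from -4.21 to 0.063 (without WT_AOMDSS replicate 2). Without both WT_AOMDSS replicates 2 and 3, Arg1 was -0.78, Cd5 0.0091, Plin4 0.029, Thy1 0.056, Nr1d1 0.081 and Krt5 0.27.

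The neutrophil, colonocyte, goblet, enteroendocrine, stem cell, fibroblast, matrix protease and proliferation medians kept their sign in all 22 alternatives. The within-slide fits among these alternatives also use genes with a flagged spot, which the slide medians given earlier leave out. The fibroblast median was -0.06 on slide 3 over 16 of its 18 genes, and its lowest value in the alternatives was 0.017. Its sign on slide 3 thus depends on which genes are counted. The other list medians of the report turned in at least 1, reaching -0.05 for monocytes and macrophages, 0.21 for T and NK cells, -0.31 for B and plasma cells, 0.11 for mast cells, -0.51 for tuft cells, 0.35 for smooth muscle, 0.27 for adipocytes, 0.09 for suppressive mediators, 0.42 for chemokines, 0.08 for cytokines, -0.22 for interferon, -0.07 for xenobiotic, -0.09 for endoplasmic reticulum stress, -0.25 for clock, -0.10 for tight junction, -0.02 for p53 and 0.01 for NRF2 genes. The T and NK, suppressive and chemokine medians turned without KO_AOMDSS replicate 1.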
